A study of Mus musculus with 4 samples.

Results

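The integrated stress response regulators described here are 10 genes: Atf4, Ddit3 (which encodes CHOP), Atf3, Trib3, Chac1, Sesn2, Ddit4, Ppp1r15a, Atf5 and Nupr1. They were chosen by symbol from the array's platform annotation, out of 22180 named genes, and each had 1 probe set. Their transcripts were measured in mouse bone marrow-derived macrophages, cells grown from marrow in medium with 15% L929-conditioned medium, a source of the growth factor CSF1. The 4 groups were Hilpda knockout and wild-type cells after 24 h, and Hilpda knockout and wild-type cells after 12 h, all of them loaded with palmitate and oleate (1:2, 600 µM in total, on albumin). HILPDA is a lipid droplet protein that inhibits adipose triglyceride lipase. The knockout cells came from HilpdaΔMΦ mice and the wild-type cells from Hilpdaflox/flox littermates, so the controls carried the floxed gene undeleted, and the mice were 8 to 12 weeks old. Which Cre driver made the deletion is not stated in the labels used here. Each group was 1 Affymetrix whole-transcript array on which RNA of 3 samples had been pooled, so there was no replicate error, and macrophages cultured without added fatty acids were not analysed here.

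The integrated stress response begins when kinases phosphorylate the translation factor eIF2, which lowers general protein synthesis and raises translation of the transcription factor ATF4. ATF4 switches on genes of amino acid supply and redox balance together with CHOP, ATF3 and TRIB3, and prolonged signalling through CHOP is known for driving cell death. In macrophages the pathway is known to respond to saturated fatty acids such as palmitate, which disturb the membrane of the endoplasmic reticulum, whereas oleate is known to soften that effect. ATF4 is controlled mainly at translation, so its transcript level is not a measure of its protein.

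ATF4 pairs with C/EBP proteins on a composite element whose core can be written TTNCATCA, and the promoter windows of the regulators were searched for it because several of them are textbook ATF4 targets. RefSeq (GRCm38.p6) held 11 windows for the 10 genes, 2 of them for Atf5, each running from 250 bases before to 50 bases after a transcription start. TTNCATCA was found, on either strand, in the windows of 4 of the 10 genes, Chac1, Trib3, Atf3 and Nupr1, against 3.97% of the 32851 windows in the table. The stretches around the match are given 5′ to 3′ on the strand of the gene, with the match in capitals.

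Chac1, chr2:119350999-119351106, plus strand, match beginning 193 bases before the start: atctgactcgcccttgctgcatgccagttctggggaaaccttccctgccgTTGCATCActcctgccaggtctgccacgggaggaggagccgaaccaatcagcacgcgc

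Atf3, chr1:191183386-191183493, minus strand, match beginning 110 bases before the start: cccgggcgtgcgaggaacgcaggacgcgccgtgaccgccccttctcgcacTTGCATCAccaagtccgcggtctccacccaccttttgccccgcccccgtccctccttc

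Nupr1, chr7:126625523-126625630, minus strand, match beginning 110 bases before the start: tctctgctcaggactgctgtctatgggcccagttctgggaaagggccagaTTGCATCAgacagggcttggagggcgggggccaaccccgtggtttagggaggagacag

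Trib3, chr2:152344011-152344096, minus strand, match beginning 14 bases after the start: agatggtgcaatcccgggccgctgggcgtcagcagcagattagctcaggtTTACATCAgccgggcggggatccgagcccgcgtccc

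The cyclic AMP response element TGACGTCA, to which ATF and CREB factors bind, was found in 1 of the 10 genes, Ppp1r15a, against 1.79% of all windows. Ddit4 is shown beside it because its genotype difference was the most negative of the 10 at both times. Its window held none of TTNCATCA, TGACGTCA and the C/EBP palindrome TTGCGCAA (the last was in 0 of the 10 genes and 0.183% of all windows), and it held the core ACGTG, which hypoxia-inducible factors bind and which 4 of the 10 genes and 19.6% of all windows contained on either strand. The capitals mark TGACGTCA in Ppp1r15a and ACGTG in Ddit4.

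Ppp1r15a, chr7:45526223-45526330, minus strand, match beginning 12 bases before the start: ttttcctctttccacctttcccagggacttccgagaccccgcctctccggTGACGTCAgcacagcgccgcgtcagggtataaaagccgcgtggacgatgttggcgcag

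Ddit4, chr10:59951903-59952007, minus strand, match beginning 187 bases before the start: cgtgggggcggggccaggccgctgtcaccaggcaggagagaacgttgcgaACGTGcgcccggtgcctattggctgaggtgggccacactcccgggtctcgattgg

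CCACG, the core to which XBP1 and ATF6 can bind, occurred in 7 of the 10 genes and in 32.8% of all windows. The matches are letters in a window and describe no binding.

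All 10 regulators passed the filter on level, a mean log2 value over the 4 arrays of at least 2.44, which kept 13308 genes. Trib3, Chac1 and Ddit4 were the dim ones, with means of 3.82, 2.91 and 3.95. The mean level of 1405 olfactory, vomeronasal and trace amine receptor genes, taken as unexpressed, had a median of 1.77, and the central 95% of them ended at 2.95, so Chac1 lay within the range of background. The genotype differences of these receptor genes had an SD of 0.30 at 24 h and 0.276 at 12 h on the log2 scale. With 1 array per group there was no spread between replicates to set a difference against. These SDs describe dim genes, and the spread of other genes changed with level and time. At 12 h the central 95% of genes of like level to Atf3 ran from -0.20 to 0.22. That of genes of like level to Trib3 ran from -0.62 to 0.63, beside -0.58 to 0.57 for the receptor genes. At 24 h genes of like level to Ddit3 ran from -0.58 to 0.65, beside -0.58 to 0.64 for the receptor genes. Across the whole table the arrays correlated pairwise at 0.984 to 0.988 (Pearson's r over all 41345 probe sets, which are not independent). Hilpda, the targeted gene, was at a log2 level of 5.27 in knockout and 5.47 in wild type at 24 h, and at 5.41 in knockout and 5.93 in wild type at 12 h, and the position of its probe set relative to the deleted part is not known here.

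**Figure D1:**
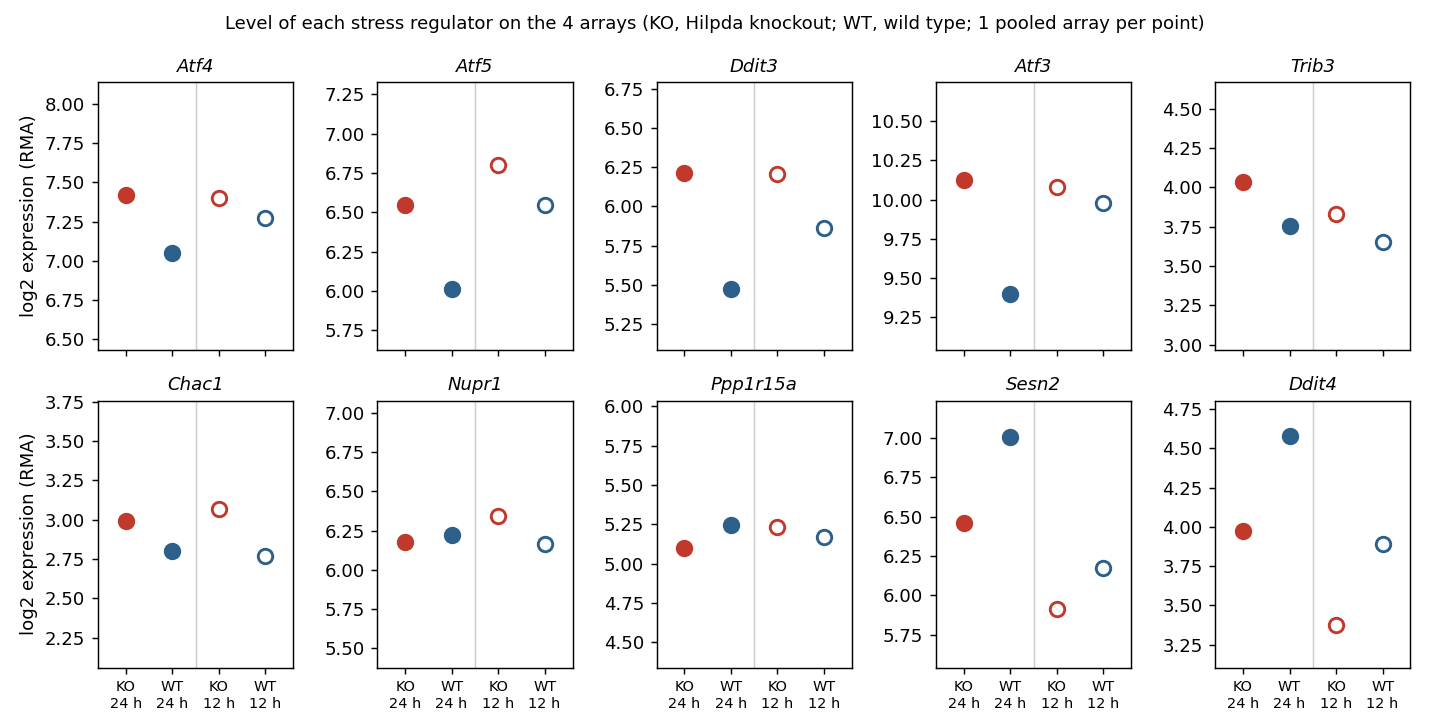
Log2 expression (vertical axis, RMA values) of the 10 regulators on the 4 arrays, 1 pooled array per point: Hilpda knockout in red and wild type in blue, 24 h filled and 12 h open. Every panel spans the same log2 range around its own mean; wild type at 24 h is the lowest array for Atf4, Ddit3, Atf3 and Atf5 and the highest for Sesn2, Ddit4 and Ppp1r15a.

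Among the transcription factors of the response, Ddit3 and Atf3 were higher in knockout than in wild-type macrophages by over 1.5-fold at 24 h, while Atf4 and Atf5 had positive differences short of it. At 12 h the differences of all 4 were positive, from 0.10 to 0.35, but none was past 1.5-fold or outside the range of genes of like level. Ddit3, which encodes CHOP, had a log2 level of 6.21 in knockout and 5.48 in wild type at 24 h, and of 6.21 in knockout and 5.86 in wild type at 12 h. Both knockout arrays were alike and lay above both wild-type arrays, and the wild-type 24 h array was the lowest. The difference was 0.74 at 24 h (1.67-fold) and 0.35 at 12 h (1.27-fold), and 173 and 827 of the 13308 genes were as high or higher. At 24 h it lay outside the central 95% of genes of like level (mean within 0.5 of that of Ddit3), which ran from -0.58 to 0.65.

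Atf3, a stress-induced factor of the same basic leucine zipper class that restrains inflammatory genes in macrophages, was bright on every array. Its log2 level was 10.12 in knockout and 9.40 in wild type at 24 h, and 10.08 in knockout and 9.98 in wild type at 12 h. A single array, wild type at 24 h, stood apart and the other three lay close together. The genotype difference was 0.73 at 24 h (1.66-fold), outside the -0.54 to 0.41 of genes of like level, and 0.10 at 12 h. The genotype difference at 24 h exceeded that at 12 h by 0.62 (1.54-fold), the only such gap past 1.5-fold among the 10 regulators, and 526 genes had a gap as large or larger in that direction.

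Atf4, the central factor, had a log2 level of 7.42 in knockout and 7.05 in wild type at 24 h, and of 7.40 in knockout and 7.27 in wild type at 12 h. The order of the arrays was that of Ddit3, over a narrower range of 0.37. Its genotype differences of 0.37 and 0.13 were inside the central 95% of genes of like level, with 1160 and 3024 genes as high or higher. Atf5, a factor of the ATF4 family known for the mitochondrial stress response, was at 6.55 in knockout and 6.01 in wild type at 24 h, and at 6.80 in knockout and 6.55 in wild type at 12 h. It was higher in knockout at both times, by 0.54 and 0.25, and unlike Atf4 and Ddit3 it was lower at 24 h than at 12 h in both genotypes.

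The downstream proteins TRIB3, a pseudokinase that binds ATF4 and CHOP and limits their activity, and CHAC1, which degrades glutathione, gave small differences near background. Trib3 was at a log2 level of 4.03 in knockout and 3.76 in wild type at 24 h, and at 3.83 in knockout and 3.65 in wild type at 12 h. Chac1 was at 2.99 in knockout and 2.80 in wild type at 24 h, and at 3.07 in knockout and 2.77 in wild type at 12 h. For both genes each knockout array lay above both wild-type arrays, but the genotype differences (0.28 and 0.17 for Trib3, 0.19 and 0.30 for Chac1) were about as large as the SD of the receptor genes or smaller.

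Ppp1r15a, which encodes GADD34, the phosphatase subunit that reverses eIF2 phosphorylation, and Nupr1, a small chromatin-associated stress protein, were nearly level across the arrays. Ppp1r15a was at a log2 level of 5.10 in knockout and 5.25 in wild type at 24 h, and at 5.23 in knockout and 5.17 in wild type at 12 h. Nupr1 was at 6.18 in knockout and 6.22 in wild type at 24 h, and at 6.34 in knockout and 6.16 in wild type at 12 h. Their whole ranges over the arrays were 0.15 and 0.18, and their genotype differences had opposite signs at the 2 times (-0.15 and 0.06 for Ppp1r15a, -0.04 and 0.18 for Nupr1).

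Sesn2 and Ddit4, both inhibitors of the growth kinase complex mTORC1, had negative genotype differences at both times, of which 1, that of Ddit4 at 24 h, was past 1.5-fold. Sesn2 encodes sestrin 2, a leucine sensor, and had a log2 level of 6.46 in knockout and 7.01 in wild type at 24 h, and of 5.91 in knockout and 6.18 in wild type at 12 h. Ddit4 encodes REDD1, which acts through the TSC complex, and was at 3.97 in knockout and 4.58 in wild type at 24 h, and at 3.37 in knockout and 3.89 in wild type at 12 h. In both genes the wild-type 24 h array was the highest and the knockout 12 h array the lowest. The genotype difference of Sesn2 was -0.55 at 24 h (1.46-fold) and -0.26 at 12 h, and that of Ddit4 -0.60 (1.52-fold) and -0.51 (1.43-fold). All 4 values were inside the central 95% of genes of like level, which for the dim Ddit4 ran from -0.82 to 0.79 at 24 h.

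**Figure D2:**
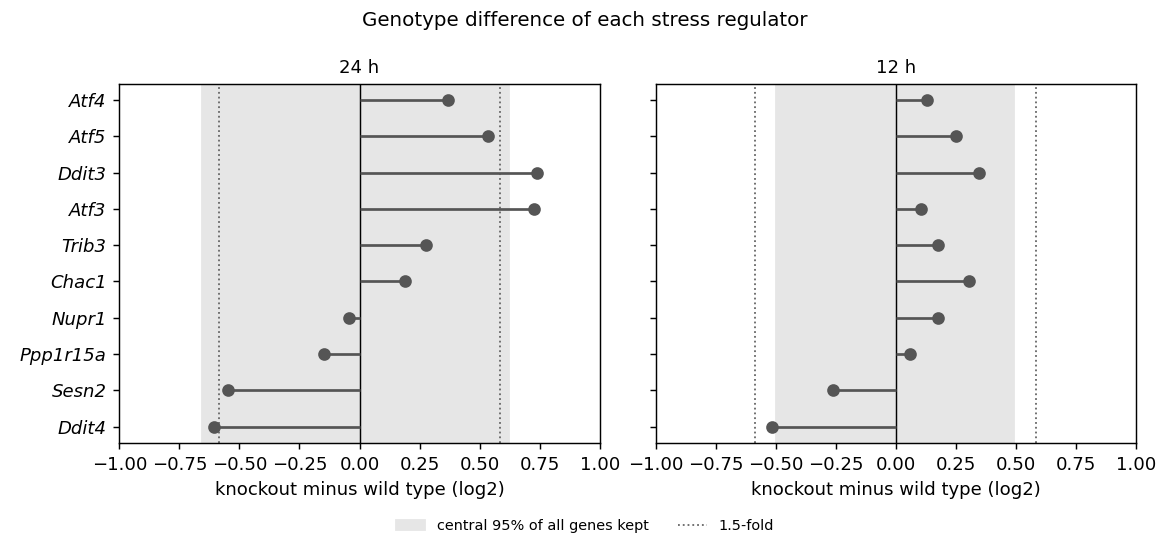
Knockout minus wild type (horizontal axis, log2) for each regulator at 24 h and at 12 h, 1 array per group. The grey band is the central 95% of the 13308 genes and the dotted lines mark 1.5-fold; Ddit3 (0.74) and Atf3 (0.73) lie beyond the band at 24 h, and Ddit4 lies inside it at 24 h (-0.60) and just beyond it at 12 h (-0.51, where the band ends at -0.50).

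Counted together, 3 of the 10 regulators were past 1.5-fold between the genotypes at 24 h, where 6.49% of all genes were. Ddit3 and Atf3 were the 2 higher in knockout, beside 2.98% of all genes, and Ddit4 the 1 lower, beside 3.51%. At 12 h the count was 0 of 10, where 2.9% of all genes were past 1.5-fold, 1.5% higher and 1.4% lower. The median of the 10 differences was 0.23 at 24 h and 0.15 at 12 h, beside 0.01 and 0.00 over all genes. The sign was the same at both times for 8 of the 10, with 6 higher and 2 lower in knockout. The size was larger at 24 h for 8 of the 10. Over all genes the differences were wider at 24 h as well, with 6.49% past 1.5-fold against 2.9% at 12 h. The larger size at 24 h therefore cannot be read as a trait of the regulators. The shares of all genes with the same sign at both times, or with a larger size at 24 h, were not counted. The change of the genotype difference was past 1.5-fold for 1 regulator, Atf3, against 10.1% of all genes, 4.7% with a positive and 5.42% with a negative change.

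The only fit that left a residual took both times together in limma, with time as an added term and 1 residual degree of freedom, whose error is the change of the genotype difference and not a spread between replicates. The genotype effect was 0.54 ± 0.15 for Ddit3, 0.42 ± 0.19 for Atf3, 0.39 ± 0.13 for Atf5, 0.25 ± 0.13 for Atf4, -0.40 ± 0.13 for Sesn2 and -0.56 ± 0.11 for Ddit4 (log2, moderated SE over 4 arrays). No regulator passed the test: the Benjamini-Hochberg adjusted p of limma lay between 0.760 and 0.970 for the 10, and 0% of the 13308 genes had an adjusted p under 0.05. Without adjustment 4 of the 10 had a limma p under 0.05, namely Ddit4 (0.0066), Ddit3 (0.018), Sesn2 (0.033) and Atf5 (0.036), beside 6.52% of all genes.

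Between 12 h and 24 h of loading, Ddit4 was higher at the later time by over 1.5-fold in both genotypes and Sesn2 in wild type, while none of the 4 transcription factors was past 1.5-fold in either genotype. Sesn2 was higher at 24 h by 0.55 in knockout (1.46-fold) and by 0.83 in wild type (1.78-fold), and the wild-type value lay outside the -0.69 to 0.67 of genes of like level. Ddit4 was higher at 24 h by 0.60 in knockout (1.51-fold) and by 0.69 in wild type (1.61-fold). These made 1 of 10 regulators past 1.5-fold in knockout, where 6.31% of all genes were, 3.06% higher and 3.25% lower at 24 h. In wild type they made 2 of 10, where 8.72% of all genes were past it, 4.71% higher and 4.01% lower.

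Ddit3 and Atf3 hardly differed between the times in knockout, at 0.00 and 0.04, and had differences of -0.39 and -0.58 in wild type, that of Atf3 just short of 1.5-fold. Atf4 gave 0.02 in knockout and -0.22 in wild type. Atf5 gave -0.25 in knockout and -0.53 in wild type. The wild-type 24 h array enters both the 24 h genotype difference and the wild-type time difference, so for these 4 factors the same low array gives the positive value in one and the negative value in the other. The remaining 4 regulators, Trib3, Chac1, Nupr1 and Ppp1r15a, had time differences between -0.16 and 0.21 in knockout and between 0.04 and 0.10 in wild type.

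**Figure D3:**
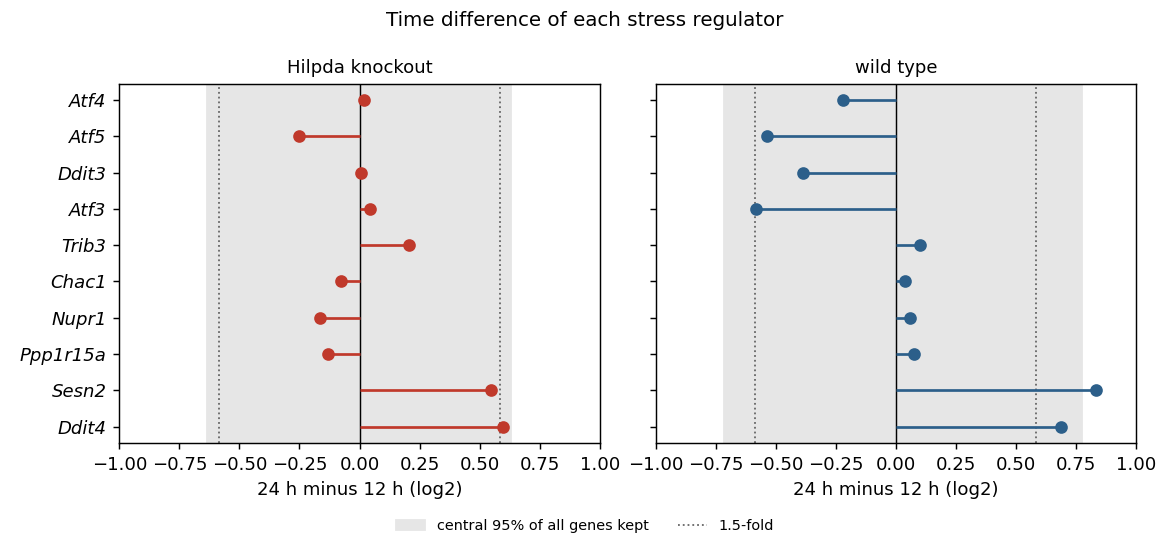
Level at 24 h minus level at 12 h (horizontal axis, log2) for each regulator in knockout and in wild type, 1 array per group and time. The grey band is the central 95% of the 13308 genes and the dotted lines mark 1.5-fold; Sesn2 in wild type, at 0.83, is the 1 value beyond the band.

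In the limma fit with genotype as the other term, the time effect was 0.69 ± 0.13 for Sesn2, 0.64 ± 0.11 for Ddit4 and -0.39 ± 0.13 for Atf5 (log2, moderated SE over 4 arrays). Their Benjamini-Hochberg adjusted p was 0.199, 0.186 and 0.338, and 0% of all genes were under 0.05. Without adjustment these 3 regulators had a limma p under 0.05, as did 13.2% of all genes. When the prior variance was allowed to follow the mean level, the adjusted p of Sesn2 in limma was 0.027, the lowest among the alternatives, which ran up to 0.314, and that of Ddit4 was 0.126.

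Markers of stromal cells moved in the same directions as Sesn2 and Ddit4 between the genotypes, and most of them did so between the times. Of 9 such markers 7 passed the level filter, and all 7 were lower in knockout, with a median difference of -0.86 at 24 h and -0.56 at 12 h. Between the times their median was 0.51 in knockout and 0.68 in wild type, higher at 24 h. In each genotype 6 of the 7 were above 0 and 1 was below, Dcn at -0.03 in knockout and Pdgfrb at -0.003 in wild type. The summed linear signal of the 9 was 511 in knockout and 898 in wild type at 24 h, and 378 in knockout and 539 in wild type at 12 h, with Lum and Thy1 under the filter. The collagen gene Col1a1 was at a log2 level of 8.00 in knockout and 8.87 in wild type at 24 h, and of 7.49 in knockout and 8.07 in wild type at 12 h. In pooled RNA, fewer cells of a type and less RNA per cell cannot be told apart, and the part of these markers in the differences of Sesn2 and Ddit4 was not tested.

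The genes whose pattern was most like that of a regulator were found by the Euclidean distance between the 4 log2 values, each gene centred on its own mean. For Ddit4 these were Mrc2, a collagen receptor (distance 0.031), the collagen gene Col3a1 (0.089), Phldb2 (0.093), the matrix proteoglycan gene Bgn (0.098) and Ptpn14 (0.10), and Sesn2 came at 0.188 with 28 genes nearer. Mrc2, Phldb2 and Ptpn14 were dim, and Col3a1 ran only from 3.62 to 4.78 over the arrays. In knockout at 12 h Phldb2, at 2.64, and Ptpn14, at 2.55, lay within the range of the receptor genes. For Ddit3 they were Serf1 (0.037), Olfr370 (0.037), Bhlhe41, a circadian repressor (0.066), Il7r, the interleukin 7 receptor (0.068), and Grin3b (0.092). Serf1, Olfr370 and Grin3b were dim. Olfr370 is itself an olfactory receptor gene taken as unexpressed, and its genotype difference at 24 h was 0.74. Both Olfr370 and Grin3b lay within the range of those unexpressed receptor genes on every array. Among the regulators Atf3 was nearest to Ddit3, at 0.189 with 58 genes nearer, then Atf5 at 0.256 and Atf4 at 0.315.

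For Atf3 the nearest were Mast4 (0.044), Borcs7 (0.056), Ttf2 (0.067), Tpmt, a thiopurine methyltransferase (0.070), and Acot13, an acyl-CoA thioesterase (0.070). For Atf4 they were Naf1 (0.017), Hsd17b12, an enzyme of fatty acid elongation (0.018), Gxylt2 (0.025), Vangl2 (0.026) and Acot2, a mitochondrial thioesterase (0.030). Gxylt2 and Vangl2 were dim and lay within the range of the receptor genes taken as unexpressed on every array. With 4 arrays, the distance between patterns mostly says which arrays were high and low.

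The macrophage markers were high on every array. Their mean log2 level over the 9 measured was 10.25 in knockout and 10.53 in wild type at 24 h, and 10.10 in knockout and 10.14 in wild type at 12 h. Their median difference was -0.28 at 24 h, with 8 of 9 below 0, and 0.01 at 12 h, and its part in the lower factor levels of the wild-type 24 h array was not tested. None of the 8 neutrophil and progenitor markers, 4 mast cell markers and 1 erythroid marker measured passed the level filter, nor did Cd3e, Cd3d and Cd3g of T cells or Cd79a and Ms4a1 of B cells. The other measured markers of these cells did pass it, Cd4 and Cd8a for T cells and Cd79b and Pax5 for B cells, at log2 levels of 4.13 or less. Of the dendritic cell, osteoclast and endothelial markers 4 of 6, 4 of 5 and 3 of 4 passed, with median genotype differences of -0.19, 0.12 and -0.02 at 24 h and of 0.10, 0.11 and 0.11 at 12 h. The brightest were Cd209a, at 6.58 in knockout and 6.88 in wild type at 24 h, and Kdr, a receptor for vascular endothelial growth factor. Kdr was at 5.48 in knockout and 4.16 in wild type at 24 h, and at 5.97 in knockout and 5.82 in wild type at 12 h, so that, as for Ddit3 and Atf3, the wild-type 24 h array was the lowest. The other endothelial markers, Pecam1, Cdh5 and Tek, went the other way at 24 h, at -0.61, -0.02 and -0.39. At 12 h they were at 0.11, 0.00 and 0.31. All of them were dim, with Tek under the filter, and the wild-type 24 h array was the highest for Pecam1 and Cdh5. The part of these markers in the regulators' differences was not tested.

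Upstream of ATF4, the kinases that phosphorylate eIF2 and the machinery of the eIF2 cycle had small differences between the genotypes. For this and the lists that follow, the share of all genes past 1.5-fold was 6.49% at 24 h (2.98% higher, 3.51% lower) and 2.9% at 12 h. Of 21 measured genes, 0 were past 1.5-fold at either time, with a median of 0.06 at 24 h and 0.02 at 12 h. The kinase genes Eif2ak3, which encodes PERK of the endoplasmic reticulum, Eif2ak4, which encodes the amino acid sensor GCN2, Eif2ak1 and Eif2ak2 had differences of 0.14, 0.10, -0.20 and -0.03 at 24 h. The largest at 24 h were Eif2b4, a subunit of the exchange factor eIF2B, at 0.39, Impact, an inhibitor of GCN2, at 0.32, and Oma1, a mitochondrial protease, at 0.26. At 12 h they were Eif2s2, a subunit of eIF2, at 0.32, after which came Eif2d at 0.26 and Eif2ak4 at 0.20. Ppp1r15b, the constitutive relative of Ppp1r15a, was at 0.12 and 0.01.

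Possible partners of ATF4 and CHOP on DNA gave no common direction. Among 17 genes of basic leucine zipper factors, 1 was past 1.5-fold at 24 h and 0 at 12 h, and the medians were -0.06 and -0.01. The one past was Batf, at a log2 level of 5.18 in knockout and 4.52 in wild type at 24 h, and of 4.76 in knockout and 4.49 in wild type at 12 h. Cebpg, a dimer partner of ATF4, was higher in knockout by 0.25 and 0.24, whereas Cebpb was lower, at -0.18 and -0.27. Jdp2 was at 0.05 and -0.52, Cebpd at -0.31 and -0.37, and Fos at -0.32 and -0.29.

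The amino acid genes that ATF4 is known to switch on included 3 of 18 past 1.5-fold at 24 h, 2 higher and 1 lower, beside 2.98% and 3.51% of all genes, and 0 at 12 h, beside 2.9%. The cationic amino acid transporter Slc7a1 had a log2 level of 5.97 in knockout and 5.18 in wild type at 24 h, and of 5.75 in knockout and 5.23 in wild type at 12 h, differences of 0.78 and 0.52. The folate enzyme Mthfd2 was at 7.04 in knockout and 6.32 in wild type at 24 h, and at 7.15 in knockout and 6.78 in wild type at 12 h. In both genes the knockout arrays lay above the wild-type arrays, as they did for Ddit3. Asparagine synthetase, Asns, was at 0.55 and 0.25, and the cystine transporter Slc7a11, which was dim, at 0.35 and 0.39. The serine synthesis gene Phgdh went against them at 24 h, at -0.92, after 0.38 at 12 h, and was dim. Of the 18 genes, 13 were above 0 and 5 below at 24 h, and 11 above and 7 below at 12 h, with medians of 0.16 and 0.09.

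The list of cytosolic tRNA synthetases, which charge tRNAs with amino acids and include ATF4 targets, also held Xpot, a tRNA export receptor. With it, 10 of 11 genes were above 0 at 24 h and 8 of 11 at 12 h, Xpot itself by 0.02 and 0.01. Their medians were 0.25 and 0.07, and 0 of 11 were past 1.5-fold at either time. Yars was at 0.44 and 0.17, Sars at 0.40 and 0.09, and Cars at 0.28 and -0.06. Tars was at 0.12 and 0.21, and Iars at 0.06 and 0.11. Among 11 other targets of ATF4 or CHOP, 1 was past 1.5-fold at 24 h: Pmaip1, which encodes the death protein NOXA, at 4.26 in knockout and 3.56 in wild type. Herpud1, of protein degradation at the endoplasmic reticulum, was at -0.32 and 0.16. Gabarapl1, of autophagy, was at 0.31 and 0.27, the death receptor gene Tnfrsf10b at -0.11 and 0.24, and the lipoprotein receptor gene Vldlr at 0.19 and 0.25. Vldlr was dim, and its 12 h levels of 2.88 in knockout and 2.64 in wild type lay within the range of the olfactory and other receptor genes taken as unexpressed. Fgf21, Gdf15 and Stc2, secreted signals of the response, did not pass the level filter.

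The other arms of the unfolded protein response, which serve the endoplasmic reticulum through XBP1 and ATF6, had 17 of 24 genes above 0 at 24 h and 21 of 24 at 12 h. Their medians were 0.14 and 0.05, and 0 were past 1.5-fold at either time. The highest at 24 h were the disulfide isomerase gene Pdia6 at 0.58, Sdf2l1 at 0.54 and Manf at 0.47, and the chaperone gene Hspa5, which encodes BiP, was at 0.35 and 0.02. Manf was dim, at 3.46 in knockout and 2.99 in wild type at 24 h. At 12 h the largest were Creld2 at 0.28, Pdia3 at 0.19 and Derl3, which was dim, at 0.17. Between the times 19 of 24 were below 0 in knockout and 18 of 24 in wild type, with medians of -0.10 and -0.21. Past 1.5-fold lower at 24 h were 2 of 24 in knockout, beside 3.25% of all genes, and 3 of 24 in wild type, beside 4.01%. Derl3, among the 2 in knockout, was at 3.53 at 12 h and at 2.86 at 24 h, the latter within the range of the receptor genes. Dnajb9, a co-chaperone gene, went the other way, at 0.29 in knockout and 0.33 in wild type.

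**Figure D4:**
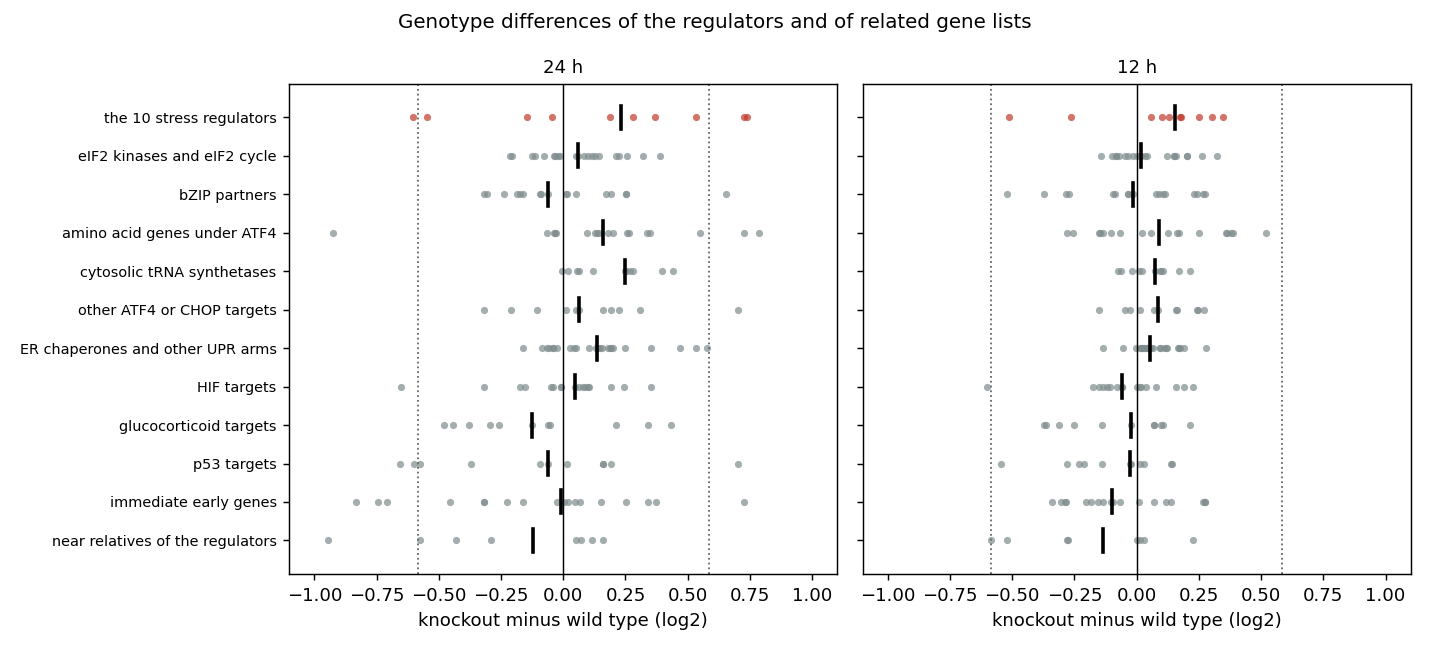
Knockout minus wild type (horizontal axis, log2) at 24 h and at 12 h for the 10 regulators (red) and 11 related lists (grey). Each dot is 1 gene, and genes under the level filter are left out. Black bars mark the median of each list and dotted lines mark 1.5-fold. The median of the regulators is 0.23 at 24 h and 0.15 at 12 h, with Sesn2 and Ddit4 as the dots farthest to the left.

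Ddit4 is also a target of hypoxia-inducible factors and of the glucocorticoid receptor, and those lists were set beside it. Of 17 targets of hypoxia-inducible factors, 1 was past 1.5-fold at each time, Adm, which encodes adrenomedullin, lower in knockout at -0.65 and -0.60. At 12 h its level was 2.15 in knockout and 2.75 in wild type, both within the range of the receptor genes, so the value at that time is one between background levels. The medians of that list were 0.05 at 24 h and -0.06 at 12 h, and Vegfa, the vascular growth factor, was at -0.01 and 0.04. Egln3 was at -0.32 and -0.11, Higd1a at 0.35 and 0.19, and Ldha at 0.09 and 0.23. Of 11 glucocorticoid targets 0 were past 1.5-fold, with 8 below 0 at 24 h and 6 at 12 h. Among these Zbtb16 was at -0.44 and -0.37, Klf9 at -0.38 and -0.31, and Fkbp5, a chaperone of the receptor, at -0.26 and -0.37. Others went the other way or both ways, the metallothionein gene Mt2 at 0.43 and 0.11, Dusp1 at 0.34 and 0.07, and the scavenger receptor gene Cd163 at -0.48 and 0.21. Their part in the lower Ddit4 level was not tested.

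Near relatives of the regulators did not follow them as a group. Of the 8 that passed the level filter, 1 was past 1.5-fold at 24 h and 1 at 12 h, both lower in knockout. The medians were -0.12 and -0.14. Ddit4l was measured but did not pass that filter. Sesn1, the sestrin controlled by p53, was at a log2 level of 8.35 in knockout and 8.93 in wild type at 24 h, and of 8.25 in knockout and 8.22 in wild type at 12 h. Sesn3 was at -0.29 and -0.28. The 1 past it at 24 h, Trib2, was at 2.32 in knockout and 3.26 in wild type at 24 h, and at 2.41 in knockout and 2.19 in wild type at 12 h. It was dim, passed the level filter only through the wild-type 24 h array, and lay within the range of the receptor genes on the other three, so its call rests on that array. Trib1 was at -0.43 and 0.00. Nupr1l, the relative of Nupr1, was at 0.16 and -0.59, and Chac2 at 0.07 and -0.28.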

How the data were processed

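The authors deposited log2 expression values per probe set, made with RMA per the submitters' processing notes, a method that corrects background, equalises the arrays' distributions and summarises probes. The log2 scale was read from the values, with array medians of 2.70 to 2.73; genes were not centred, and such values cannot show a global rise or loss of RNA. The value table held 0 columns without a sample. Of 41345 probe sets, 23521 had 1 gene symbol, 1814 several and 16010 none listed; only the first kind was used, and 23328 of these matched RefSeq. For a gene with several probe sets the brightest was taken. Genes with a mean at or above the 40th percentile were kept.

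Differences are knockout minus wild type, or 24 h minus 12 h, and were called at 1.5-fold without a test. The number of arrays, 1 per group, limits the precision. The 2-factor fit used limma 3.58.1 in R 4.3.3 with Benjamini-Hochberg adjustment over all genes kept, and was checked on simulated data. The comparison with genes of like level was added after seeing the data. Beside the regulators, genes were named from 11 fixed lists by size of difference (3 per time, or past 1.5-fold at both times). Eif2ak1, Eif2ak2, Eif2ak3, Ppp1r15b, Cebpb, Cebpg, Asns, Xpot, Hspa5, Dnajb9, Vegfa, Dusp1, Sesn3, Cd209a, Kdr, Pecam1, Cdh5 and Tek were named after their values were seen. The regulators and lists were chosen with earlier results of these data known. Alternatives were no filter or one at the 60th percentile, the mean over probe sets, loess on level (span 0.3), quantile normalization, median centring, a variance trend in limma, and calls at 1.3-fold or 2-fold.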

Additional observations from a re-analysis of the deposited data

How the results depend on the processing

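The 50 differences of the regulators (10 genes, 5 comparisons) moved by at most 0.054 under other scalings and probe set rules, less than the SD of the receptor genes. Only Chac1 in wild type and Ddit3 in knockout, both near 0 between the times, changed sign, and Atf3 between the times in wild type reached -0.59, past 1.5-fold, after median centring. With the 1.3-fold rule the regulators past it numbered 5 of 10 at 24 h and 1 of 10 at 12 h between the genotypes, beside 17.1% and 9.9% of all genes. Between the times they numbered 2 in knockout and 5 in wild type, beside 16.8% and 20.4%. For the change of the genotype difference they numbered 2, beside 23.5%. With the 2-fold rule each of these counts was 0, beside 0.77%, 0.26%, 1.13%, 1.95% and 1.87% of all genes in that order. The 60th percentile filter (4.37, 8872 genes) removed Trib3, Chac1 and Ddit4 and left 7 regulators. Between the times 0 of the 7 were past 1.5-fold in knockout and 1 in wild type, beside 4.62% and 7.47% of the genes kept. Their median in wild type was -0.22 against 0.05. With this filter 2 of the 7 were past 1.5-fold between the genotypes at 24 h against 3 of 10, beside 4.28% of the genes kept against 6.49%. The median of the 7 was 0.37 against 0.23, and their median change of the genotype difference was 0.24 against 0.01. The limma time effect then called 146 genes against 0, and 38 after median centring and 540 with the variance trend, Sesn2 among the last. The genotype effect called 0 genes under each alternative, with 667 to 1231 at an unadjusted p under 0.05.

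Over all genes, the main counts past 1.5-fold were 864 at 24 h and 386 at 12 h between the genotypes, 840 in knockout and 1161 in wild type between the times, and 1346 for the change. In that order they were 380, 91, 410, 663 and 460 with the 60th percentile filter, 2278, 1317, 2234, 2715 and 3122 with the 1.3-fold rule, and 103, 34, 150, 260 and 249 with the 2-fold rule. With no filter 628 genes were past 1.5-fold at 12 h and 2316 for the change. No paired analysis was possible because each group was 1 pooled array with no replicate number. Depth of signal limits Chac1, Trib3 and Ddit4, which were dim.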

Other observations

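Immediate early genes, which respond to stimulation within the hour and with which Atf3 is often grouped, went both ways at 24 h. Of 18 measured, 1 was past 1.5-fold upward in knockout and 3 downward, beside 2.98% and 3.51% of all genes, with a median of -0.01. Egr2 was at a log2 level of 5.30 in knockout and 4.57 in wild type, Ier3 at 5.94 in knockout and 6.77 in wild type, Nr4a1 at 4.74 in knockout and 5.48 in wild type, and Klf4 at 4.25 in knockout and 4.96 in wild type. At 12 h 0 of the 18 were past 1.5-fold, with a median of -0.10.

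Targets of p53, a list that shares Pmaip1 and Bbc3 with the CHOP targets, included 3 of 11 past 1.5-fold at 24 h, beside 6.49% of all genes, and 0 at 12 h, beside 2.9%. Cdkn1a, which encodes the cell cycle inhibitor p21, was at 8.50 in knockout and 9.10 in wild type at 24 h, and at 8.69 in knockout and 8.55 in wild type at 12 h. Btg2, an antiproliferative gene, was at 6.47 in knockout and 7.13 in wild type at 24 h, and at 6.21 in knockout and 6.44 in wild type at 12 h. Pmaip1, which was dim, lay on the other side at 24 h, at 0.70. Trp53inp1 was at -0.37 and -0.55 at 24 h and 12 h, and Aen at 0.19 and -0.28. For Cdkn1a, Btg2 and Ier3, as for Sesn2 and Ddit4, the wild-type 24 h array was the highest of the 4.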
